A study of Mus musculus with 4 samples.

Results

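The Zfp genes are the mouse genes named as numbered zinc finger proteins, and their expression from the Spretus and the C57 allele was measured here in frontal cortex. Members were all genes named Zfp and a number (Zfp264 was left aside) for which each of the 2 RNA libraries held at least 20 allele-assigned reads. They were thus selected on read depth in these same libraries, with no threshold on the allelic share. The family was chosen with earlier results of these data known. Of 341 listed Zfp genes, 223 qualified, out of 46320 listed genes in all. On autosomes there were 221 members and on the X chromosome 2.

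The libraries came from prefrontal cortex of 14-week-old female F1 mice of the strain combination C57BL6J/Spretus. In all animals the maternal copy of Xist was mutated, so no animal without it was available for comparison. The strain and the parent of origin of an allele thus went together in every library. A difference between the Spretus and C57 alleles may belong to either, and the contributions of strain and parent cannot be told apart here. Tissue was pooled from 2 individuals of different litters, and the labels do not say whether the libraries came from separate pools, so p-values here reflect variation between the libraries that could be purely technical. Within each library, Spretus and C57 reads came from the same nuclei, and the Spretus share of a gene is the percentage of its allele-assigned reads that came from Spretus. A list of regions whose DNA methylation differed between the alleles, from MethylC-seq of the same tissue, was used as well.

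Most Zfp proteins carry tandem C2H2 zinc fingers, each a small fold held by a zinc ion that contacts a few bases of DNA, so that an array of fingers reads a longer site. Many also carry a KRAB domain, which recruits the scaffold Trim28 (KAP1) and through it the histone methyltransferase Setdb1, and such proteins are best known for silencing transposable elements. KRAB zinc finger genes lie in tandem clusters that arose by local duplication and that differ between related species. Other Zfp genes are conserved single genes with roles in neural development, RNA processing or chromosome segregation.

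Library 1 held 4768237 allele-assigned reads and library 2 held 1291903, and the Spretus share over all autosomal genes was 47.9% in library 1 and 48.0% in library 2. Xist makes the RNA that coats and silences the X chromosome it is transcribed from. Checked against the labelled mutation, Xist gave 2158 reads from Spretus and 31 from C57 in library 1, and 795 from Spretus and 9 from C57 in library 2. Neuronal markers had a median of 455 FPKM in library 1 and 107 FPKM in library 2, whereas the cerebellar markers had medians of 0.186 and 0.0978 FPKM and the choroid plexus markers 0.387 and 0.232 FPKM. Oligodendrocyte markers had medians of 116 FPKM in library 1 and 12.6 FPKM in library 2, astrocyte markers 21.9 and 3.10, and microglial markers 18.3 and 2.55. Blood markers had medians of 291 FPKM in library 1 and 20.5 FPKM in library 2. These lists did not fall alike from library 1 to library 2. The part of cell make-up, blood included, in the allelic shares was not tested.

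The members were expressed at low to moderate levels. Their FPKM, a level of both alleles together per transcript length, ran from 0.926 (Zfp568) to 259 (Zfp365) in library 1, with a median of 5.94, and from 0.197 to 38.6 in library 2, with a median of 1.08. The other autosomal genes with the same minimum of reads had medians of 13.4 FPKM in library 1 and 2.31 FPKM in library 2, so FPKM values were lower in library 2 for members and for other genes alike. Members had 85 to 3111 allele-assigned reads over both libraries, with a median of 258, against a median of 373 for other autosomal genes. At the threshold, Zfp830 (29 Spretus and 36 C57 reads in library 1, 12 and 8 in library 2), Zfp930 (22 and 44, then 7 and 13) and Zfp362 (35 and 35, then 7 and 13) lay just inside. Zfp418 (43 Spretus and 40 C57 reads in library 1, 11 and 8 in library 2), Zfp229 (55 and 24, then 14 and 5) and Zfp593 (32 and 40, then 10 and 9) lay just outside.

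Taken across the family, the 2 alleles contributed about equally. The median Spretus share of the 221 autosomal members was 48.5%, with an interquartile range of 44.9 to 52.2% and an SD between genes of 7.72 percentage points. Counting error alone would give an SD of 3.30 points at these depths, which leaves 6.98 points. The 9516 other autosomal genes, weighted to the members' depths, had a median of 48.1%, an SD of 8.14 points and 7.46 points beyond counting error. Zfp264 is in neither group, while other near-monoallelic genes were kept among the other genes. Within the chromosome 7 run from Zfp444 to Zfp954, for example, their shares reached 96.3%. The part of such genes in the SD was not tested. A share outside 40 to 60% was found in 11.8% of members and in 14.9% of the weighted other genes. These shares are descriptions of the 2 groups of genes and carry no test.

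**Figure D1:**
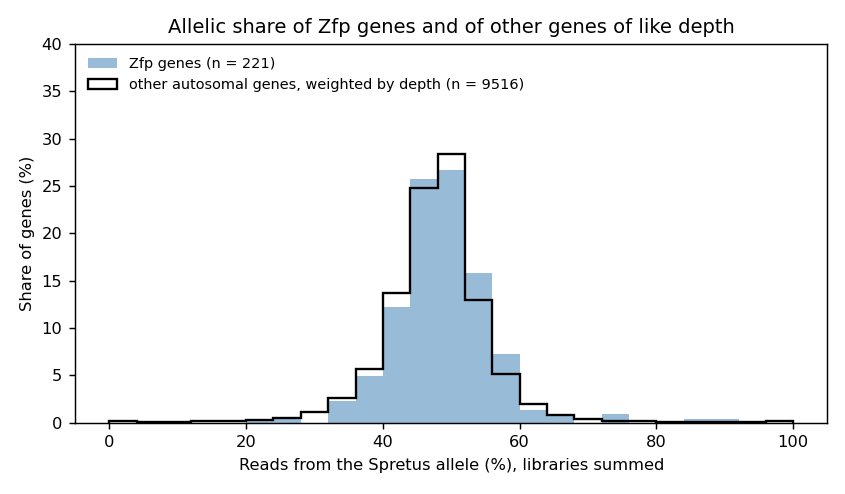
Distribution of the Spretus share (percent of allele-assigned reads, both libraries summed) of the 221 autosomal Zfp members and of the 9516 other autosomal genes weighted to the same depth. Both centre near 48%, with SDs of 7.72 points for members and 8.14 points for the other genes.

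The spread was described by depth and by genomic arrangement. The 46 members with 80 to 159 reads had an SD of 13.1 points, against 11.2 points in other genes of that depth, and 28.3% of these members lay outside 40 to 60%, against 27.8% of the other genes. The 97 members with 160 to 319 reads had an SD of 5.86 points, against 8.20 points in other genes, and 9.28% of these members lay outside 40 to 60%, against 15.8% of the other genes. The 51 members with 320 to 639 reads had 7.84% outside these bounds, against 7.63%. The 118 members that lie in clusters (at least 3 members with starts at most 1 Mb apart) had an SD of 8.52 points, and the 103 members outside clusters had 6.59 points. Leaving out the 4 members farthest from the autosomal share, which are Zfp820, Zfp947, Zfp617 and Zfp110, gave 6.24 points for the family. All 4 lie in clusters and 3 of them had fewer than 160 reads, so the same genes enter both contrasts. A neighbouring class of zinc finger genes named Zbtb, Zscan or Zkscan, 46 in number, had a median of 47.3% and an SD of 4.36 points.

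The shares of the members did not differ between the libraries beyond counting error. By Fisher's exact test per gene (two-sided, Benjamini-Hochberg adjusted over 10053 genes), 0 of 223 members differed, and 2 had an unadjusted p under 0.05. These 2, named after their values were seen, were Zfp52, with a Spretus share of 57.6% in library 1 and 30.0% in library 2 (exact p = 0.0287), and Zfp799, with 44.5% and 54.7% (exact p = 0.0496). Over all 10053 genes the same test called 0 genes, and 240 had an unadjusted p under 0.05. Both libraries put 86 autosomal members above the autosomal share and 74 below it, and for 61 members the libraries lay on opposite sides.

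Of the autosomal members, 11 were called imbalanced by the quasi-likelihood test of edgeR, Benjamini-Hochberg adjusted over all genes tested, 8 toward Spretus and 3 toward C57. That is 4.98% of the 221 members, beside 5.43% of all 11584 autosomal genes tested. Toward Spretus the members' share of calls was 3.62%, beside 2.39% of all autosomal genes, and toward C57 it was 1.36%, beside 3.04%. Weighted to the members' depth, the other genes gave 2.11% toward Spretus and 2.91% toward C57. Whether the split by direction differs from that of other genes was not tested.

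Treating the alleles of a library as paired, with the library as a replicate block in the same edgeR fit, raised the number of members called to 42, with 21 in each direction. This is 19.0% of the members, beside 22.5% of all autosomal genes, and 9.50% in each direction, beside 11.1% toward Spretus and 11.3% toward C57. All 11 members of the unblocked fit were among the 42. Adjusted p-values of edgeR given below are from the unblocked fit unless the block is named. That fit counts differences between the libraries in the level of a gene, which both alleles share, as error. For Zfp365 the SE of the log2 ratio was 0.28 in that fit and 0.049 with the block. A high p without the block thus does not show that the alleles of a gene were equal. A rule that reads each library alone, in which the exact Clopper-Pearson 95% interval of the share must lie on the same side of the autosomal share in both libraries, called 11 members (4.98%), beside 8.44% of 9737 autosomal genes. Of these, 7 (3.17%) lay toward Spretus, beside 3.88% of all, and 4 (1.81%) toward C57, beside 4.56%. The intervals cover counting error only, and reads of 1 library are not independent molecules. Counted in either direction, the members' share of calls was near to or below that of autosomal genes in general by all 3 rules. The other genes with the same minimum, weighted to the members' depth, gave 21.4% with the block and 7.64% by the interval rule.

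The members with the highest Spretus shares lay on chromosome 17, in a run of 15 members between 21008941 and 23599487 (mm10), the coordinates of the first and last locus. Zfp820 had 109 reads from the Spretus and 12 from the C57 allele in library 1, with 27 and 0 in library 2. Its Spretus share was thus 90.1% (exact 95% interval 83.3 to 94.8%) and 100% (87.2 to 100%), and the log2 ratio of Spretus to C57 was 3.64 (SE 0.44, adjusted p = 1.07e-04 by edgeR). Zfp947 had 53 reads from the Spretus and 11 from the C57 allele in library 1, with 23 and 2 in library 2, with a log2 ratio of 2.72 (SE 0.42, adjusted p = 8.13e-04 by edgeR). Zfp946 had 174 reads from the Spretus and 90 from the C57 allele in library 1, with 44 and 30 in library 2, with a log2 ratio of 0.94 (SE 0.21, adjusted p = 0.0148 by edgeR). In all 3 genes both libraries lay above the autosomal share, and the C57 reads of Zfp820 and Zfp947 were few in each. For the 0 C57 reads of Zfp820 in library 2, the limit that a count of 0 allows is a C57 share of up to 11.1% (3 reads of 27), a rougher bound than the exact interval.

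These 3 members, the ones of that run called by edgeR, also share short stretches in the DNA before their start sites, which is shown for that reason. Each sequence is the 250 bases upstream of the gene's start in RefSeq (build GRCm38.p6, the C57 reference), read 5′ to 3′ on the gene's strand, at chr17:21845760-21846009 (minus strand) for Zfp820, chr17:22165978-22166227 (minus strand) for Zfp947 and chr17:22423952-22424201 (plus strand) for Zfp946. Capitals mark bases in runs of 12 letters that also occur in at least 1 of the other 2.
Zfp820: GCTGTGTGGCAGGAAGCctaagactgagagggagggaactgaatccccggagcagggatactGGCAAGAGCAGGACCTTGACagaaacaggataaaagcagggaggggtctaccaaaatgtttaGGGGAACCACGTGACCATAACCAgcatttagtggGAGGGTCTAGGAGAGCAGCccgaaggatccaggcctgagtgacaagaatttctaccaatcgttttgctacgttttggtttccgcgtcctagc
Zfp947: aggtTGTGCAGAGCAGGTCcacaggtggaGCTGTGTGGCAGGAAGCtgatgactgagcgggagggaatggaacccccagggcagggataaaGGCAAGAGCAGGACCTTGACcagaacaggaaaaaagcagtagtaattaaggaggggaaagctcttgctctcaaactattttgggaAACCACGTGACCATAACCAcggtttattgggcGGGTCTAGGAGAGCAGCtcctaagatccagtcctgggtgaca
Zfp946: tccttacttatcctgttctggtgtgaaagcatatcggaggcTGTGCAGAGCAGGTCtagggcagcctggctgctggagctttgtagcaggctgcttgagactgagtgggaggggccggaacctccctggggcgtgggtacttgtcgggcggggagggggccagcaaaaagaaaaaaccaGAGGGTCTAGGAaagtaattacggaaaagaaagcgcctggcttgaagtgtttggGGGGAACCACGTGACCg
Zfp820 and Zfp947 shared 29 of 239 such runs. Zfp946 shared fewer than 8 with either of them. Of its 250 bases 43 are in capitals, against 79 in Zfp820 and 88 in Zfp947. The run AACCACGTGACC is the longest that stands in all 3. Searched on both strands (as GGTCACGTGGTT on the other), it was found upstream of 9 of 27025 genes, or 0.0333%. It was picked as the longest shared run, so its rarity is no independent result. Besides the 3, Gm7072 and Zfp994 on chromosome 17 also hold it. The run contains the letters CACGTG, which were found upstream of 15 of 183 autosomal members (8.20%) and of 6.05% of all genes. Of those 15 members, 7 lie in the chromosome 17 run. Among the genes holding AACCACGTGACC that are not Zfp members and had at least 20 reads in each library, Coq4, of coenzyme Q synthesis, had a Spretus share of 52.2% and Urod, of haem synthesis, 53.5%. The group was chosen after its values were seen, the Spretus sequence was not used here, and a match describes letters only.

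The pair of members with the most similar upstream sequences had shares on opposite sides of the autosomal share. Zfp943 and Zfp758 shared 222 of 239 runs of 12 letters, and they are shown to set them beside their shares. Their sequences lie at chr17:21962309-21962558 (plus strand) and chr17:22361213-22361462 (plus strand), and capitals mark runs found in both.
Zfp943: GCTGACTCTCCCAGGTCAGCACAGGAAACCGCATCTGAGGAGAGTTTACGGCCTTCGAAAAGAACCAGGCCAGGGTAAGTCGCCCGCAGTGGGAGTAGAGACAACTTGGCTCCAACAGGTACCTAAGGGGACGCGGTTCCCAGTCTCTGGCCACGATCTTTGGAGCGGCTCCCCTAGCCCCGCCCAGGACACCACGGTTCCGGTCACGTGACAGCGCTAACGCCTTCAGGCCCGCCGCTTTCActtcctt
Zfp758: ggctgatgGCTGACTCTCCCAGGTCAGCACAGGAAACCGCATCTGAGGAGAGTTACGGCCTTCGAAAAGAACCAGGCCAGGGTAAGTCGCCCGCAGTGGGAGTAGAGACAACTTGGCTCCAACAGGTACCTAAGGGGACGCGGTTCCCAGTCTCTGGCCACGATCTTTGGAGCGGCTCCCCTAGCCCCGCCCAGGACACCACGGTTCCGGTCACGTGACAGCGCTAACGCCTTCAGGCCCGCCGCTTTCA
Zfp943 had 202 reads from the Spretus and 151 from the C57 allele in library 1, with 66 and 45 in library 2, a share of 57.8% over both. Zfp758 had 35 reads from the Spretus and 54 from the C57 allele in library 1, with 7 and 13 in library 2, a share of 38.5%. Zfp943 lay above the autosomal share in both libraries and was called by the interval rule and with the replicate block (adjusted p = 2.06e-04 by edgeR), but not without the block (adjusted p = 0.0912 by edgeR), while Zfp758 was called by none of these. A second close pair, Zfp942 and Zfp944, shared 202 runs and had shares of 55.6% and 56.4%. Of 16653 pairs of members with an upstream sequence, 378 (2.27%) shared at least 1 run of 12 letters, and of the 78 pairs within the chromosome 17 run 15 did.

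**Figure D2:**
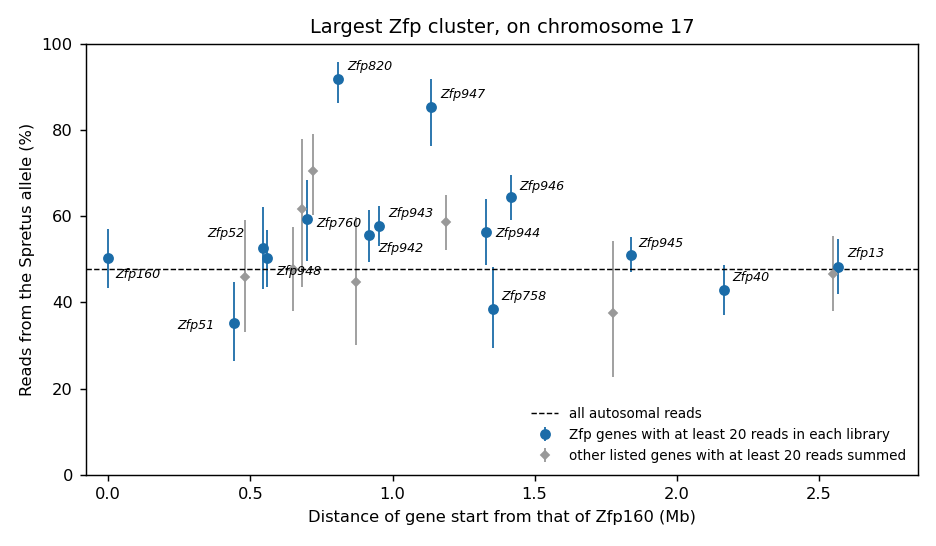
Spretus share (percent, both libraries summed, with exact 95% intervals) of Zfp members and other genes along the chromosome 17 run, against the distance from the start of its first member in Mb. Zfp820 at 91.9% and Zfp947 at 85.4% stand above the other members, which range from 35.1 to 64.5%, and grey points are other listed genes with at least 20 reads over both libraries.

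Within this run the shares varied more than in most. In genome order, Zfp160 had a Spretus share of 50.2%, Zfp51 35.1%, Zfp52 52.7%, Zfp948 50.2% and Zfp760 59.3%. After Zfp820 followed Zfp942 at 55.6% and Zfp943 at 57.8%, and after Zfp947 followed Zfp944 at 56.4% and Zfp758 at 38.5%. Beyond Zfp946 at 64.5%, Zfp945 had 51.1%, Zfp40 42.9% and Zfp13 48.3%. The 15 shares had a median of 52.7% and an SD of 15.4 points, with 12 above and 3 below the autosomal share. High and low genes were interspersed along the chromosome. With the replicate block 5 were called toward Spretus and 1, Zfp51, toward C57 (33 Spretus and 55 C57 reads in library 1, 6 and 17 in library 2, adjusted p = 0.0341 by edgeR). A second run of 10 members on the same chromosome, from Zfp871 to Zfp414 (32771236 to 33631779), had shares between 43.3 and 53.2%, with a median of 46.6% and an SD of 3.27 points, and held 0 calls by edgeR with or without the block and 0 by the interval rule.

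The other members called toward Spretus were spread over chromosomes 7, 8 and 18. Zfp110 (NRIF, a protein that binds the p75 neurotrophin receptor) lies on chromosome 7 at 12834761 to 12850577. It had 175 reads from the Spretus and 62 from the C57 allele in library 1, with 44 and 12 in library 2, a mean share of 76.2% ± 3.35 (SD, n = 2), with a log2 ratio of 1.72 (SE 0.23, adjusted p = 2.2e-04 by edgeR). Its 6 neighbours in the run of 7 had shares of 45.8 to 57.7%, so that Zfp110 stood apart from them. Zfp617 on chromosome 8, at 71908635 to 71934629, had 86 reads from the Spretus and 28 from the C57 allele in library 1, with 30 and 9 in library 2, a mean share of 76.2% ± 1.05 (SD, n = 2), with a log2 ratio of 1.81 (SE 0.32, adjusted p = 0.00246 by edgeR). Its locus overlaps those of Zfp882 and Ccnb2-ps, which also had reads. Zfp709 and Zfp961, the other 2 members of its run, had shares of 50.7% and 42.6%.

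Weaker imbalances toward Spretus were found in 3 more members. Zfp438 had 127 reads from the Spretus and 59 from the C57 allele in library 1, with 28 and 19 in library 2, with a log2 ratio of 1.06 (SE 0.25, adjusted p = 0.0183 by edgeR). Zfp940, in the chromosome 7 run of 11 members, had 164 reads from the Spretus and 100 from the C57 allele in library 1, with 45 and 31 in library 2, with a log2 ratio of 0.78 (SE 0.21, adjusted p = 0.0365 by edgeR). Zfp407, a large zinc finger gene on chromosome 18, had 439 reads from the Spretus and 292 from the C57 allele in library 1, with 96 and 66 in library 2, with a log2 ratio of 0.69 (SE 0.17, adjusted p = 0.0225 by edgeR). Zfp940 overlaps Gm26554 and Zfp407 overlaps Gm37216, both with reads. These 3 and Zfp946 lost their call when both alleles took the library total in place of TMM factors (adjusted p between 0.063 and 0.13 by edgeR), a change that moves the median log2 ratio of all autosomal genes to -0.11, against 0.02 with TMM. DESeq2 called Zfp820, Zfp947, Zfp110 and Zfp617 and no other autosomal member.

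**Figure D3:**
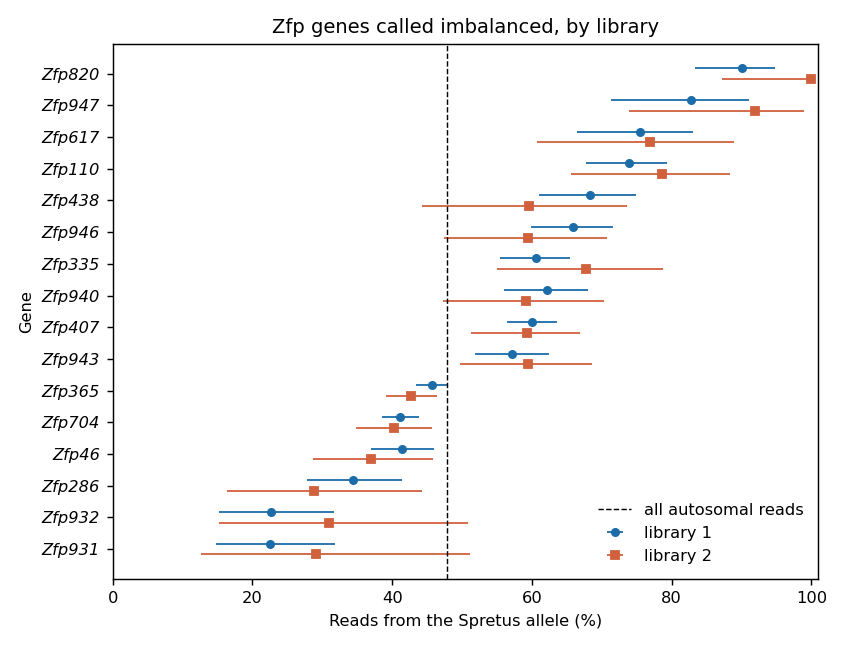
Spretus share (percent) in each library, with exact 95% intervals, of the autosomal members called by edgeR or by the interval rule, sorted by share. Zfp820, Zfp947, Zfp617 and Zfp110 lie above 70% in both libraries, and Zfp931 and Zfp932 lie at 31.0% or below in both.

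Toward C57, 3 members were called. Zfp931 on chromosome 2, at 178067695 to 178078476, had 23 reads from the Spretus and 79 from the C57 allele in library 1, with 7 and 17 in library 2, with a log2 ratio of -1.51 (SE 0.32, adjusted p = 0.00897 by edgeR). Zfp932, a KRAB zinc finger gene known for repressing endogenous retroviruses, lies on chromosome 5 at 109996521 to 110010411. It had 25 reads from the Spretus and 85 from the C57 allele in library 1, with 9 and 20 in library 2, with a log2 ratio of -1.45 (SE 0.31, adjusted p = 0.0110 by edgeR). Zfp286 on chromosome 11 had 68 reads from the Spretus and 130 from the C57 allele in library 1, with 13 and 32 in library 2, with a log2 ratio of -0.90 (SE 0.24, adjusted p = 0.0418 by edgeR). In all 3 both libraries lay below the autosomal share, and Zfp286 overlaps Zfp286it, which had reads. None of the 3 was called by DESeq2 (adjusted p between 0.148 and 0.386), and Zfp931 and Zfp932 were not called by the interval rule, since in library 2 their intervals reached 51.1% and 50.8%.

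The upstream sequences of Zfp931 and Zfp932, on different chromosomes, also share stretches with each other and with that of Zfp950 on chromosome 19, and they are shown for that resemblance. They lie at chr2:178078426-178078675 (minus strand), chr5:109996260-109996509 (plus strand) and chr19:61140841-61141090 (minus strand) in GRCm38.p6, and capitals mark runs of 12 letters shared with at least 1 of the other 2.
Zfp931: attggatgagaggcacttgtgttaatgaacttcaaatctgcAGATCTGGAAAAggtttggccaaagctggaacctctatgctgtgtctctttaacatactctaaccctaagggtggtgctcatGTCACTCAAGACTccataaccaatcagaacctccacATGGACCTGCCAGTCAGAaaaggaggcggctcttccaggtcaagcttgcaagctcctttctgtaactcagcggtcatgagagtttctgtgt
Zfp932: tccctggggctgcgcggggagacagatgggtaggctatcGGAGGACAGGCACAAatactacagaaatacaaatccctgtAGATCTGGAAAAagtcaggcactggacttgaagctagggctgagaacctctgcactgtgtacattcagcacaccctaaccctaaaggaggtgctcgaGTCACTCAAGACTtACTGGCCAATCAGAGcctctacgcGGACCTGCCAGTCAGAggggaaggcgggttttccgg
Zfp950: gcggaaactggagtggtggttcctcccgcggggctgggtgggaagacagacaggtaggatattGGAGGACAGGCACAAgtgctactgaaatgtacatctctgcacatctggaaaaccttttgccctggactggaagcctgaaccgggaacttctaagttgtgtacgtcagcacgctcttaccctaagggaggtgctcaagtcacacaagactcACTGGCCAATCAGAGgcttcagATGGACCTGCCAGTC
Zfp932 shared 8 runs of 12 letters with Zfp931 and 10 with Zfp950. The 13 letters GGACCTGCCAGTC are the longest run that stands in all 3. On either strand (GACTGGCAGGTCC on the other) they were found upstream of 28 of 27025 genes, or 0.104%. They, too, were picked as the longest shared run, so their rarity is no independent result. Zfp950 had 83 reads from the Spretus and 144 from the C57 allele in library 1, with 23 and 25 in library 2, a share of 38.5%. It was called toward C57 with the replicate block (adjusted p = 0.0125 by edgeR) and not without it (adjusted p = 0.362 by edgeR). The Zfp950 locus overlaps that of Grk5, which also had reads. Among genes outside the members that hold these letters, Gm1976 and Gm14403 had at least 20 reads in each library, with Spretus shares of 30.4% and 49.5%. Another 2 reached 20 reads only over both libraries, Atp5e, a subunit of ATP synthase, with 25.0% of 100 reads, and Gm14295 with 82.0% of 50 reads. At least 8 runs were also shared with the upstream sequence of 41 other genes for Zfp931 and 34 for Zfp932, against 5 for Zfp947 and 2 each for Zfp820 and Zfp946. Likeness upstream does not show how alike the transcribed parts are. Reads of close copies, in this group or in the chromosome 17 run, may be split between them in counting. The part of this in the shares was not tested. This group, too, was chosen after its values were seen.

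The interval rule called 5 members that the unblocked fit did not. Toward Spretus these were Zfp943, given above, and Zfp335, a factor of histone H3K4 methyltransferase complexes needed for neurogenesis. Zfp335 had 235 reads from the Spretus and 153 from the C57 allele in library 1, with 44 and 21 in library 2 (adjusted p = 0.0604 by edgeR), and its locus overlaps Pcif1 and Zfp335os, which had reads. Toward C57 they were Zfp46, Zfp704 and Zfp365. Zfp46 had 197 reads from the Spretus and 278 from the C57 allele in library 1, with 48 and 82 in library 2 (adjusted p = 0.134 by edgeR). Zfp704 had 554 reads from the Spretus and 792 from the C57 allele in library 1, with 132 and 196 in library 2 (adjusted p = 0.293 by edgeR). Its locus overlaps that of C030034L19Rik, which had reads. Zfp365, which binds the neuronal scaffold Disc1 and had the highest FPKM of the family, had 927 reads from the Spretus and 1104 from the C57 allele in library 1, with 303 and 406 in library 2 (adjusted p = 0.795 by edgeR). All 5 were called with the replicate block. Its adjusted p by edgeR was 1.92e-06 for Zfp335, 0.00266 for Zfp46, 2.98e-06 for Zfp704 and 0.0151 for Zfp365. Zfp365 had a share of 44.9% over 2740 reads, and its interval in library 1 ended at 47.8%, just below the autosomal share.

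The deepest members otherwise sat close to the autosomal share. Zfp106, an RNA-binding protein needed by motor neurons in mice, had 1178 reads from the Spretus and 1184 from the C57 allele in library 1, with 361 and 388 in library 2, a share of 49.5%. Zfp644 had 474 reads from the Spretus and 559 from the C57 allele in library 1, with 145 and 190 in library 2, a share of 45.2%. Zfp451, a SUMO ligase, had 493 reads from the Spretus and 552 from the C57 allele in library 1, with 117 and 129 in library 2, a share of 47.3%. None of these 3 was called by any of the 3 rules.

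Grouping members by run of neighbours gave 20 clusters. The 118 clustered members held 6 of the 8 edgeR calls toward Spretus and 0 of the 3 toward C57, and the 103 members outside held 2 and 3, beside 2.39% of all autosomal genes toward Spretus and 3.04% toward C57. These counts cover members only. Zfp783 and Zfp595, below the minimum of reads and called toward C57 by edgeR, lie within the spans of clusters. With the replicate block the clustered members held 13 calls toward Spretus and 8 toward C57, and those outside held 8 and 13, beside 11.1% and 11.3% of all. In the chromosome 7 run from Zfp788 to Zfp719 (41633203 to 43593235), all 5 members lay above the autosomal share, with Zfp788 at 49.1%, Zfp141 at 52.8%, Zfp715 at 49.7%, Zfp658 at 60.0% and Zfp719 at 47.9%. Of these only Zfp658 was called, with the replicate block, and Zfp719 lay at the autosomal share to within its counting error. Lower medians were found in 2 runs of 4 members. The chromosome 9 run from Zfp653 to Zfp810 (22055460 to 22307638) had a median of 40.2%, with Zfp653 at 49.1%, Zfp809 at 42.1%, Zfp599 at 33.3% and Zfp810 at 38.3%. The chromosome 8 run from Zfp930 to Zfp866 (69226343 to 69791178) had a median of 39.7%, with Zfp930 at 33.7%, Zfp868 at 38.0%, Zfp869 at 53.2% and Zfp866 at 41.4%. In each of these 2 runs 2 members were called toward C57 with the replicate block and 0 without it. They were named after their values were seen.

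**Figure D4:**
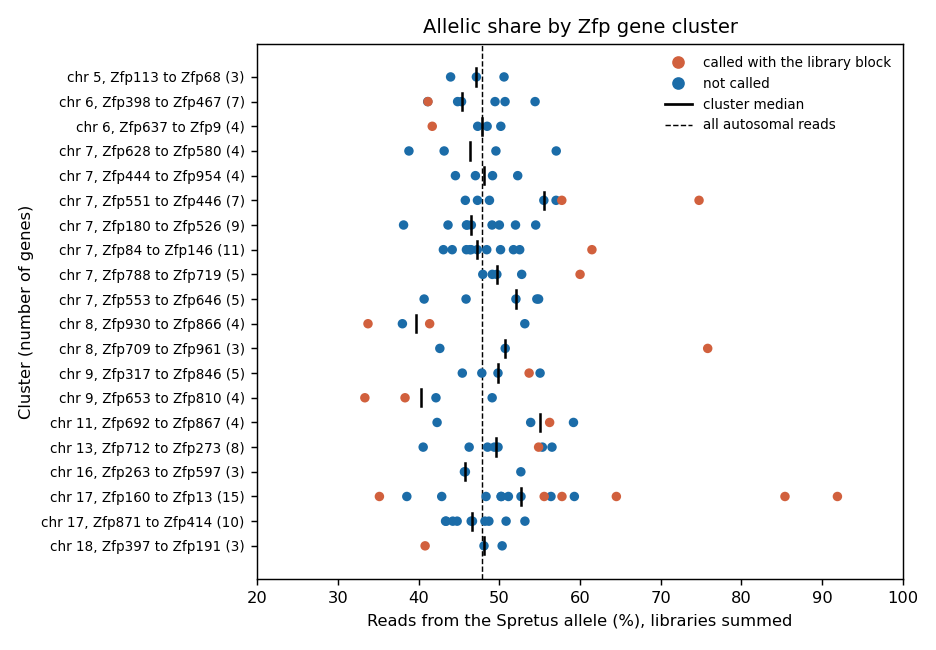
Spretus share (percent, both libraries summed) of every member in the 20 clusters, 1 cluster per row, with the cluster median as a bar, the autosomal share as a dashed line and members called with the library as a block in orange. The medians run from 39.7% to 55.5%, and the run on chromosome 17 from Zfp160 to Zfp13 is the widest, at 35.1 to 91.9%.

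Members with well-described roles had a median share close to that of the family. Of a list of 22 such genes, 19 were members, with a median share of 48.4% and a range of 24.5 to 59.0%. edgeR called 0 of them toward Spretus and 1, Zfp932, toward C57, and with the replicate block Zfp281, a regulator of pluripotency genes, was called toward Spretus and Zfp365 toward C57 as well. These are 1 of 19 beside 5.43% of all autosomal genes, and 3 of 19 with the block beside 22.5%, so the list's calls lie near those of autosomal genes in general. Zfp57 and Zfp445, which keep methylation at imprinting control regions, both passed the minimum of reads. Zfp57 had 52 reads from the Spretus and 41 from the C57 allele in library 1, with 12 and 12 in library 2, a share of 54.7%. Zfp445 had 243 reads from the Spretus and 301 from the C57 allele in library 1, with 58 and 80 in library 2, a share of 44.1%. Neither was called by any of the 3 rules.

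Zfp809, which silences retroviruses by binding their proline tRNA primer site, had a share of 42.1%, and Zfp568, which represses a placental promoter of Igf2 in the mouse embryo, had 48.4%. Among factors of neural development, Zfp423 had 54.5%, Zfp462 50.1%, Zfp521 49.5% and Zfp536 42.2%. Of those tied to RNA or the spindle, Zfp638 had 50.0%, Zfp326, of the complex that couples splicing to elongation, 39.2%, and Zfp207 (BuGZ), which acts at kinetochores, 47.6%. Zfp148 had 46.1%, Zfp91, a ubiquitin ligase, 44.7%, Zfp317 49.8% and Zfp64 52.2%. Zfp36, an RNA-binding protein of another finger type that shares the name, Zfp189 and Zfp708 did not reach the minimum of reads.

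The genes of proteins that work with KRAB zinc finger proteins were described in the same way. Of 22 listed co-repressor genes, 20 were tested, and Uhrf1 and Dnmt3b had too few reads. Their median share was 48.0%, with a range of 39.5 to 59.3%. edgeR called 0 of 20 in either direction, beside 5.43% of all autosomal genes, and with the replicate block it called Hdac1 (59.3%) and Cbx3 (58.0%) toward Spretus and Mphosph8 (39.5%) toward C57, which is 3 of 20 beside the 22.5% of all autosomal genes. Mphosph8, of the HUSH silencing complex, was also called toward C57 by the interval rule, with shares of 41.4% in library 1 and 32.9% in library 2. Trim28 had 63.7 FPKM in library 1 and 10.1 FPKM in library 2, and a share of 49.7%. Setdb1 had a share of 43.6%.

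The 2 X-linked members had no Spretus read. Zfp275 had 0 reads from the Spretus and 341 from the C57 allele in library 1, with 0 and 82 in library 2, which allows a share of up to 0.709% over both. Zfp182 had 0 reads from the Spretus and 110 from the C57 allele in library 1, with 0 and 25 in library 2, which allows up to 2.22%. Of 397 X-linked genes tested by edgeR, 394 were called toward C57, so these members did what nearly all X-linked genes did.

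The 118 listed Zfp genes below the minimum of reads were not members, and 20 of them had no read in either library. Of the 60 that edgeR tested, 7 were called and are named here after their values were seen, of which 3 (Zfp711, Zfp449 and Zfp92) are X-linked. Of autosomal genes 5.43% were called by the same fit, and of X-linked genes 394 of 397. Zfp783 on chromosome 6 had 4 reads from the Spretus and 52 from the C57 allele in library 1, with 1 and 15 in library 2, a share of 6.94% (adjusted p = 9.47e-05 by edgeR). Zfp819 on chromosome 7 had 44 reads from the Spretus and 2 from the C57 allele in library 1, with 16 and 1 in library 2, a share of 95.2% (adjusted p = 6.85e-05 by edgeR). The other 2 were Zfp229 toward Spretus, with 70.4%, and Zfp595 toward C57, with 26.6%. Zfp229 lies within the chromosome 17 run of 15 members, and Zfp595 within the chromosome 13 run from Zfp712 to Zfp273. Zfp783 lies within the chromosome 6 run from Zfp398 to Zfp467, where its locus overlaps that of Zfp956. On autosomes, Zfp819 and Zfp783 thus had the highest and the lowest share of all Zfp genes that edgeR called, at depths below those of the members.

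Few members lay near a region of allelic methylation. Of the 1600 listed regions with a level for each allele, 9 lay in or within 2 kb of a member, 8 on autosomes and 1 on the X chromosome. Of autosomal members 3.62% had such a region, beside 3.24% of other autosomal genes. Per length of locus with 2 kb on each side, this was 0.949 regions per Mb for members and 0.454 for other genes, which was not tested. Methylation levels are fractions of cytosines read as methylated, and their depth is unknown here. Zfp444 on chromosome 7 had a region of 439 bases, 544 bases from its locus (6171243 to 6171682), with a level of 0.460 on Spretus and 0.00673 on C57, and a share of 52.3%. Zfp93 on the same chromosome had a region of 255 bases, 1498 bases from its locus, with 0.818 on Spretus and 0.245 on C57, and a share of 50.0%. Zfp146, at the end of the chromosome 7 run of 11 members, had a region overlapping its locus (30160822 to 30161508) with 0.685 on Spretus and 0.967 on C57, and a share of 47.3%.

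The other 5 autosomal regions were short, of 6 to 110 bases, and all had the higher level on C57. The levels were 0 on Spretus and 0.951 on C57 at Zfp236, 0 and 0.988 at Zfp346, 0 and 0.766 at Zfp384, 0 and 0.943 at Zfp423, and 0.5 and 1 at Zfp644. A base that differs between the strains can remove a cytosine from 1 allele, and its part in these short regions was not tested. None of the 8 autosomal members with a region was called imbalanced by any of the 3 rules. On the X chromosome, the region of Zfp182 (21061379 to 21062171) lay inside its locus, with a level of 0.759 on Spretus and 0.0550 on C57. None of the 226 RefSeq promoters of 184 members, each 250 bases before to 50 after a start, overlapped a listed region, beside 217 of 32851 promoters in the whole table. A gene without a listed region was not called by the authors, which does not show equal methylation.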

How the data were processed

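RNA-seq libraries were depleted of ribosomal RNA and stranded, per the labels. The deposited tables give, per gene, unnormalized counts of Spretus and of C57 reads, and FPKM of both alleles together, which the authors computed. The build mm10 and the tools HTSeq 0.6.0, bedtools 2.2.4, TopHat2 2.0.9 and Cufflinks 2.1.1 are named in the submitters' processing notes. How reads were assigned to an allele, and how reads of close paralogs were counted, is not given in the sources used here. Methylation levels per allele and region are fractions as deposited by the authors, with no coverage. Members and gene lists were chosen with earlier results of these data known.

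Rows were reduced to 1 per gene (the longest locus). edgeR 4.0.16 (quasi-likelihood, TMM, genes with at least 10 reads in each library, threshold 0.05 on the adjusted p) was fitted to 11981 genes with allele as the only term, and SEs are the log2 ratio divided by the root of its F statistic. Both alleles of a library were read in the same nuclei, so library numbers pair them by design, and the replicate block is given beside the main counts. DESeq2 1.42.0, no TMM, no filter and other minimums were alternatives. The fit was tested on simulated data, in which all columns varied independently and the alleles of a library shared no library effect. There edgeR recovered 52% of 2-fold and 96% of 4-fold differences, and with the library block 57% and 97%. DESeq2 recovered 21% and 81%. Since the simulated alleles were not paired, these percentages do not measure what the block gains in the deposited counts. A missing call near a 2-fold ratio, above all by DESeq2, thus does not show that the alleles were equal. Genes named in the text were those called by edgeR or by intervals, the 5 deepest, those at the threshold, X-linked or near a region, 2 fixed lists and any cluster lying on 1 side, and others are said to be chosen later. Upstream sequences come from RefSeq (GRCm38.p6), and protein sequences were not used here. Of the members, 222 matched the RefSeq gene table by symbol, and 183 on autosomes had an upstream sequence.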

Additional observations from a re-analysis of the deposited data

How the results depend on the processing

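Against 11 members called by edgeR, the paired fit with the replicate block called 42 members, library totals without TMM called 7, DESeq2 called 4, and 4 were called among members with at least 50 reads in each library. Dropping the filter on low counts gave 12. Among members whose locus overlaps no other locus with reads, an alternative chosen after seeing the data, 7 were called. The direction of calls moved with the scaling, with 72.7% of members called toward Spretus under TMM and 57.1% with library totals. The interval rule, which called 11, gave 13 to 53 members when either library was left out (53 from library 1 alone), 13 against a reference of 50%, and 7 at the higher minimum of 50 reads. With the 50% reference 6 of its calls were toward Spretus and 7 toward C57, against 7 and 4 with the autosomal share.

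The SD of the shares, 7.72 points, was 7.76 to 9.79 points when either library was left out, 5.57 points at the minimum of 50 reads, 6.59 points outside clusters, and 6.24 points without the 4 members farthest from the autosomal share, which was also chosen after seeing the data. Clusters held 104 members at a gap of 500 kb and 137 at 2 Mb, against 118 at 1 Mb. Regions near members numbered 6 within gene bodies and 13 within 10 kb, against 9, and 2 spanned 200 bases or more and differed by 0.5 or more in level. The counting error of library 2, which was shallower, limits which single genes could be called, and fewer genes enter at the higher minimum of reads. The cause of the other changes was not tested.

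Of 43 named members, no call reversed in direction under these alternatives. DESeq2 took 7 below the threshold and library totals 4, and the replicate block brought 6 above it and the missing filter 1. By more than their SE, 16 moved without library 1 and 2 without library 2. From library 2 alone, Zfp438 had a log2 ratio of 0.68, against 1.06, and Zfp932 had -1.03, against -1.45. In these ratios from a single library, a count under 3 was set to 3. The 2 that moved without library 2 were the X-linked Zfp275 and Zfp182, which had 0 Spretus reads. Their moves followed from that setting and do not show a dependence on the library, and both are also among the 16.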
